A study of Mus musculus with 20 samples.

Results

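The genes described here code for 8 major proteins of mouse milk. They are Csn1s1, Csn1s2a, Csn2 and Csn3 (the caseins alpha-s1, alpha-s2-A, beta and kappa), Wap (whey acidic protein), Lalba (alpha-lactalbumin), Glycam1 (a secreted mucin-like glycoprotein) and Mfge8 (lactadherin, of the milk fat globule membrane). They were picked by gene symbol among 43346 genes with deposited read counts, and each symbol matched 1 gene. RNA came from 20 breast tumors, 1 from each of 20 female [BALB/c-neuT x FVB/J] F1 mice. The mice were offspring of BALB/c males carrying the neuT transgene and wildtype FVB/J females, so that every tumor arose with the same Her2/neu transgene and no normal mammary gland or transgene-free animal was available for comparison. Each mouse bore several tumors and a small frozen piece of 1 of them was used, which can hold stromal, fat and immune cells beside tumor cells. Sample titles divide the tumors into 9 named Lo and 11 named Hi, and the sources used here do not say what these words stand for. Tumors are named below by this word and their number. Neither parity nor the stage of the estrous cycle is given for the mice.

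Milk protein genes are switched on in the alveolar epithelial cells of the mammary gland during pregnancy and lactation. Prolactin binds its receptor (Prlr) on these cells, the kinase Jak2 phosphorylates the transcription factors Stat5a and Stat5b, and these act on milk protein genes together with the glucocorticoid receptor and factors such as Elf5, Nfib and Cebpb. Caseins assemble into micelles that carry calcium, with kappa-casein stabilizing the micelle surface. Alpha-lactalbumin is the partner of the galactosyltransferase B4galt1 in lactose synthesis. Mfge8 is also made by macrophages, where it marks dying cells for uptake, and Glycam1 is also made by the high endothelial venules of lymph nodes.

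Gene counts summed to 38765682 in the shallowest tumor and to 65465755 in the deepest. A ribosomal RNA locus (Yam1 and AY036118) took 6.29% to 27.7% of them, and levels are therefore given as CPM after TMM scaling, that is, counts scaled to a common library size and corrected for the makeup of each library. All 10 markers of luminal epithelium that were listed were present in every tumor, with Epcam between 876 and 1334 CPM and Krt8 between 568 and 1105 CPM. Summed over 9 markers each, adipocyte genes ranged from 6.66 to 79.6 CPM (from the total counts) over the 20 tumors and macrophage genes from 254 to 481. In tumor pieces, fewer cells that express a gene and less RNA per cell cannot be told apart.

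All 8 genes had reads in each of the 20 tumors. Together they took between 0.878% (Lo 9, Wilson 95% interval 0.875% to 0.880%) and 1.94% (Hi 8, 1.93% to 1.94%) of the reads of a tumor, with a median of 1.09%. Such intervals cover counting error only. Levels of different genes were compared per length, as RPKM (reads scaled to the listed gene length and to the total count). Over the 20 tumors the median was 1823 RPKM for Csn3, 996 for Mfge8, 302 for Csn2, 214 for Csn1s2a, 194 for Csn1s1, 138 for Lalba, 22.4 for Glycam1 and 1.30 for Wap. Csn3 lay above Mfge8 in 20 of 20 tumors, with a log2 ratio within a tumor of 0.84 ± 0.35 (SD, n = 20). Mfge8 lay above Csn2 in 18 of 20 (1.74 ± 1.44) and Csn2 above Csn1s2a in 20 of 20 (0.49 ± 0.22). Csn1s2a, Csn1s1 and Lalba were less clearly ordered. The log2 ratio of Csn1s2a to Csn1s1 was 0.18 ± 0.39, with Csn1s2a higher in 15 tumors, and that of Csn1s1 to Lalba 0.54 ± 0.98, with Csn1s1 higher in 16 tumors, so that in both cases the spread between tumors exceeded the mean. Lalba lay above Glycam1 in 19 tumors and Glycam1 above Wap in 20. The length listed for Csn3 (4152 bases) is longer than its first-numbered transcript in GENCODE (991 bases), and with the latter its median was 7638 RPKM. For Wap these lengths are 1008 and 551 bases.

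Csn1s1, Csn2 and Csn1s2a varied widely. Csn1s1 (ENSMUSG00000070702, chromosome 5, 87666224 to 87682573, mm10, plus strand) ranged from 59.9 CPM in Hi 1 to 2030 CPM in Hi 8, a 33.9-fold range, with a median of 270 CPM. Csn2 (ENSMUSG00000063157, chromosome 5, 87692624 to 87699421, minus strand) ranged from 49.1 CPM in Hi 3 to 4121 CPM in Hi 8, an 83.9-fold range around a median of 334 CPM. Csn1s2a (ENSMUSG00000061937, chromosome 5, 87774567 to 87788797, plus strand) ranged from 29.4 CPM in Hi 3 to 2463 CPM in Hi 8, an 83.7-fold range around a median of 206 CPM. Hi 8 and Hi 11 were the highest 2 tumors and Lo 7 the third for each of these genes, whereas Hi 1, Hi 3 and Hi 10 were the lowest 3. The highest and the lowest tumors thus both carried the name Hi. Without Hi 8 the ranges were 19.1-fold for Csn1s1, 36.5-fold for Csn2 and 39.2-fold for Csn1s2a. In Hi 8 these 3 genes took 0.852% of all reads (Wilson 95% interval 0.849% to 0.854%), and in Hi 10 they took 0.0153% (0.0150% to 0.0156%).

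The caseins did not keep a fixed proportion. Per length, the ratio of Csn2 to Csn1s1 was 0.936 in Hi 3, 2.56 in Hi 8 and 1.59 at the median, and that of Csn1s2a to Csn1s1 ran from 0.682 in Hi 3 to 1.87 in Hi 8. Between Csn2 and Csn1s2a the ratio stayed between 1.03 and 1.996. The ratio of Csn3 to Csn2 was 6.88 at the median and 37.8 in Hi 3, and Hi 8 was the tumor in which it was lowest, at 0.478.

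Wap (ENSMUSG00000000381, chromosome 11, 6635482 to 6638637, minus strand) followed the same tumors at a far lower level. It had 14 to 1321 reads per tumor, or 0.270 CPM in Hi 1, 1.41 CPM at the median and 25.4 CPM in Hi 8, a 94.0-fold range. The second tumor, Hi 11, reached 6.80 CPM, and the range without Hi 8 was 25.2-fold. Its values in the lowest tumors rest on few reads and are correspondingly less precise. In the lactating mouse gland, Wap is among the most abundant messenger RNAs.

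Kappa-casein behaved differently from the other caseins. Csn3 (ENSMUSG00000001622, chromosome 5, 87925579 to 87932665, plus strand) had 282907 to 568430 reads per tumor. Its lowest level was 5750 CPM in Hi 4, its median 7741 CPM and its highest level 9852 CPM in Hi 11, a 1.71-fold range. Hi 8, highest for the other caseins, ranked 14 of 20 for Csn3, at 7309 CPM. Mfge8 (ENSMUSG00000030605, chromosome 7, 79133769 to 79149060, minus strand) was likewise narrow, between 1593 CPM in Lo 2 and 3416 CPM in Hi 8 with a median of 2055 CPM, a 2.15-fold range. Hi 1, which was at or near the bottom for the caseins, ranked 3 of 20 for Mfge8, at 2805 CPM.

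For Lalba and Glycam1 the order of the tumors departed in part from that of Csn2. Lalba (ENSMUSG00000022991, chromosome 15, 98480400 to 98482683, minus strand) ranged from 28.5 CPM in Hi 1 to 261 CPM in Hi 5 with a median of 104 CPM, a 9.16-fold range. Hi 5, highest for Lalba, ranked 9 for Csn2, and Hi 3, lowest for Csn2, ranked 9 for Lalba at 122 CPM. Glycam1 (ENSMUSG00000022491, chromosome 15, 103562762 to 103565078, minus strand) ranged from 1.41 CPM in Hi 7 to 149 CPM in Hi 11, a 106-fold range around a median of 13.6 CPM. Lo 7 (136 CPM), Hi 4 (90.5 CPM) and Hi 8 (89.2 CPM) followed Hi 11. Hi 5 stood out by its low Glycam1 level, 4.75 CPM, with the highest Lalba level, rank 2 for Csn3 and ranks 8 or 9 for the other caseins.

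**Figure D1:**
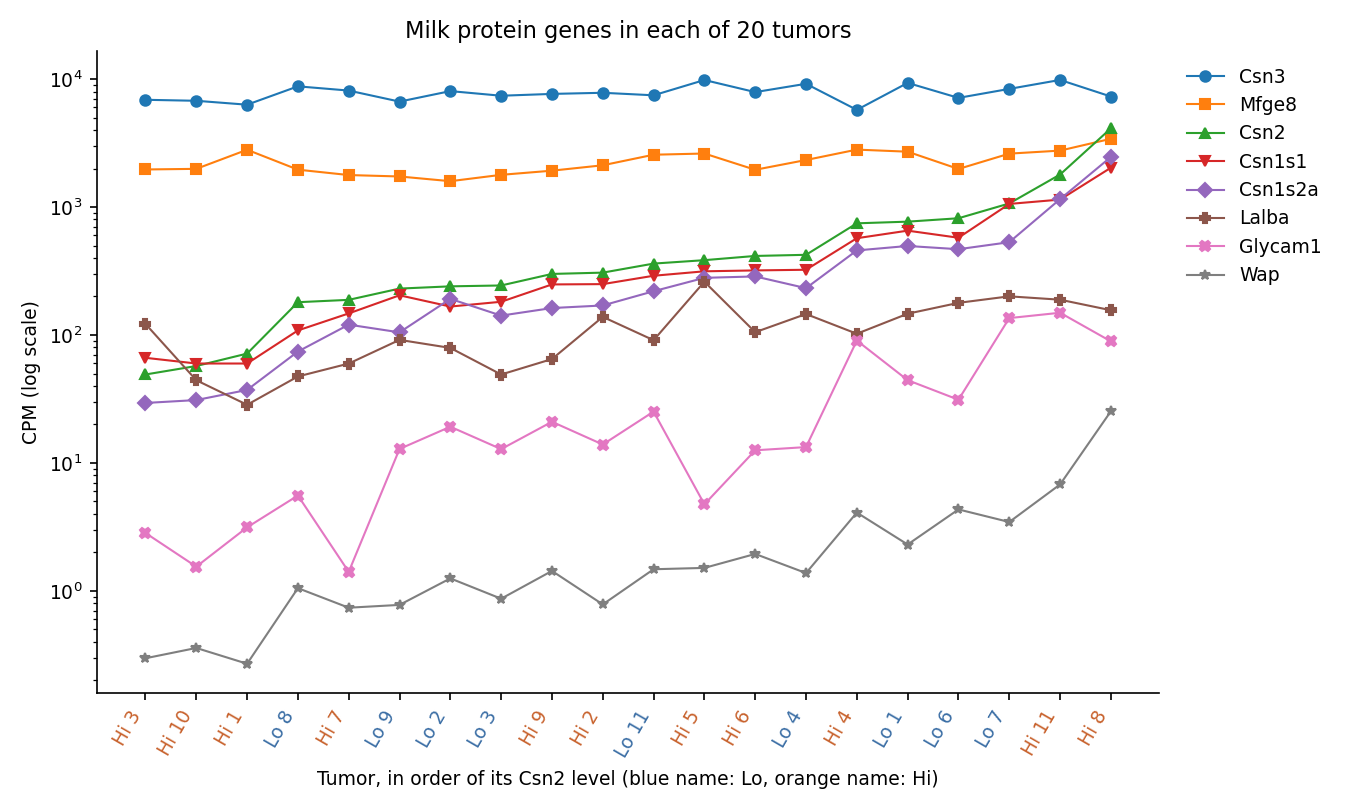
CPM on a log scale (y axis) of the 8 milk protein genes in each of 20 tumors (x axis, ordered by Csn2, with Lo names in blue and Hi names in orange), 1 point per gene and tumor, joined by lines only to guide the eye. Csn3 and Mfge8 stay within 1.71-fold and 2.15-fold ranges, whereas Csn2 spans 83.9-fold and Glycam1 106-fold.

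Measured as the SD of log2 CPM over the 20 tumors, the spread was 2.01 for Glycam1, 1.64 for Csn1s2a, 1.59 for Csn2, 1.53 for Wap and 1.41 for Csn1s1. These SDs ranked 42, 72, 78, 85 and 107 among the 18883 genes that passed the filter on low counts, whose median SD was 0.25. Lalba had an SD of 0.85 (rank 798), Mfge8 of 0.30 (rank 7742) and Csn3 of 0.21 (rank 11357). Without the highest and the lowest tumor of each gene the SDs were 1.78 for Glycam1, 1.34 for Csn1s2a, 1.26 for Csn2, 1.16 for Wap and 1.21 for Csn1s1 and still lay above the median SD of all genes.

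The 4 caseins lie within 266 kb of chromosome 5. From 100 kb before to 100 kb after this stretch, 18 genes are listed in the count table, and 13 of them had under 100 reads in every tumor. Csn1s2b, the paralog next to Csn1s2a, had 23 to 599 reads per tumor and a median of 1.001 RPKM. Its highest level, 11.1 CPM, was in Lo 1 and not in Hi 8. How reads that fit both paralogs were counted is not given in the sources used here. Odam, between Csn1s2b and Csn3, had 15 to 55 reads and a median of 0.447 RPKM. The sulfotransferase genes Sult1d1 and Sult1e1, upstream of Csn1s1, had medians of 0.188 and 0.187 RPKM. Past Csn3, Smr3a had at most 26 reads and Cabs1 had 0 reads in all 20 tumors, where up to 3 reads per tumor cannot be told from none. High levels in the interval were thus those of the 4 caseins, and the steady Csn3 lies in the same interval as the widely varying Csn1s1, Csn2 and Csn1s2a.

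**Figure D2:**
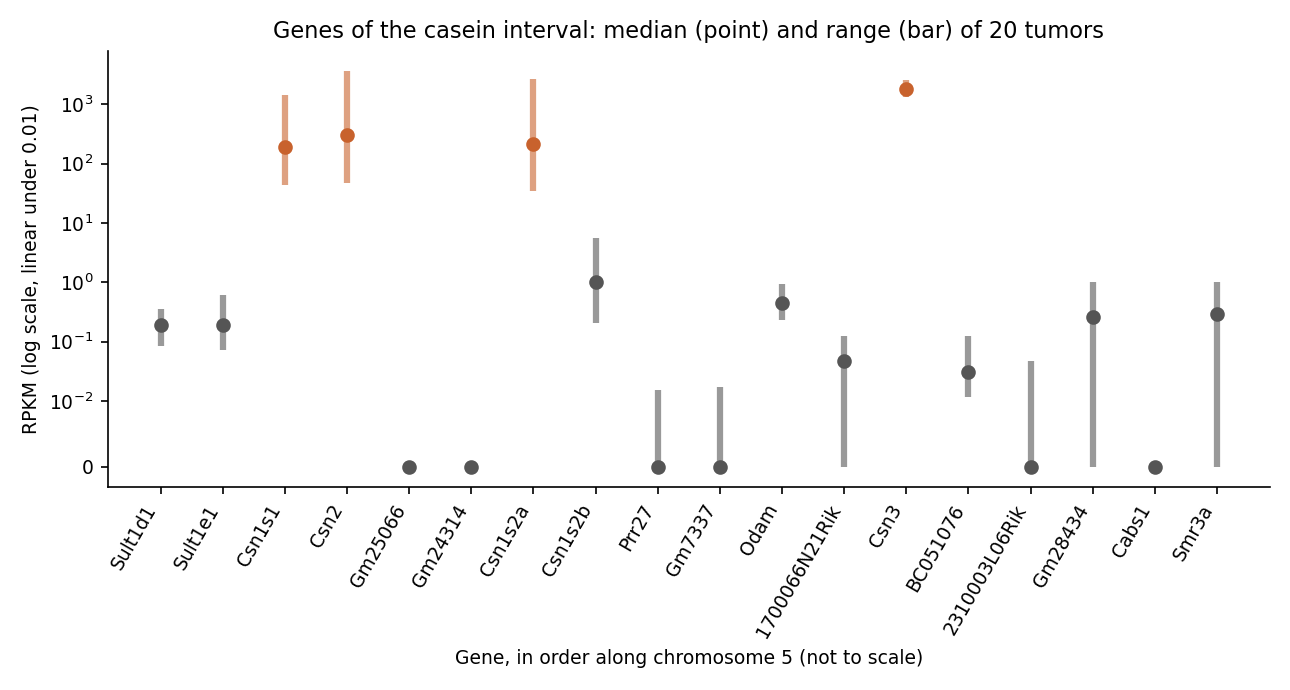
RPKM (y axis, log scale, linear under 0.01) of the 18 genes of the casein interval in their order along the chromosome (x axis), with the median as a point and the range of 20 tumors as a bar. The 4 milk protein genes (orange) have medians between 194 and 1823 RPKM, Csn1s2b has 1.001, and the range of Csn3 is the shortest of the 4.

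The widely varying genes moved together over the tumors. Pearson's r of log2 CPM was computed between each milk protein gene and all others, with a two-sided test of 100000 permutations of the 20 tumors and Benjamini-Hochberg adjustment over the 18882 genes tested against it. Of 28 pairs among the 8 genes, 10 passed an adjusted p of 0.05 from both sides, namely all pairs among Csn1s1, Csn1s2a, Csn2, Wap and Glycam1. Of all genes, 0.350% correlated positively with Csn1s1 at this threshold, 0.318% with Csn1s2a, 0.307% with Csn2, 0.233% with Wap and 0.0477% with Glycam1. Csn2 and Csn1s2a had the closest relation (r = 0.99, Spearman's rho = 0.98, permutation p = 1e-05, the smallest these permutations can give, adjusted p = 0.00651 against Csn2). When Hi 3 and Hi 8, which lay farthest from the Csn2 median, were left out, r was 0.99. It was 0.96 within the Lo tumors and 0.998 within the Hi tumors. Csn2 with Csn1s1 had r = 0.99 (rho = 0.99, permutation p = 1e-05, adjusted p = 0.00651), with 0.99 without the same 2 tumors, 0.99 within Lo and 0.996 within Hi. Wap, on another chromosome, had r = 0.97 with Csn2 (rho = 0.94, permutation p = 1e-05, adjusted p = 0.00651), with 0.96 without these 2 tumors, 0.92 within Lo and 0.98 within Hi. Glycam1 had r = 0.87 with Csn2 (rho = 0.84, permutation p = 2e-05, adjusted p = 0.0118), with 0.88 without them, 0.88 within Lo and 0.87 within Hi. Its r with the same genes was 0.83 to 0.89, but with Lo 7 and Hi 11, which lay farthest from the Glycam1 median, left out, no gene passed the threshold against it, and r with Csn2 was then 0.84 (adjusted p = 0.0809).

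**Figure D3:**
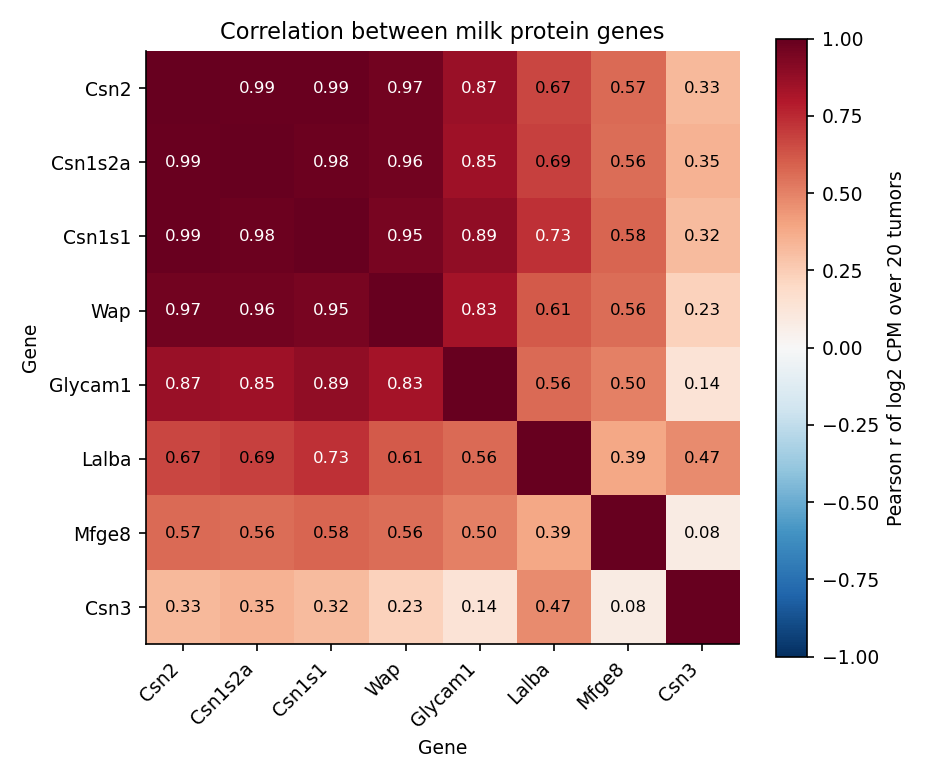
Pearson's r of log2 CPM over 20 tumors (color and number) for each pair of the 8 milk protein genes (both axes). Csn2, Csn1s2a, Csn1s1 and Wap have r of 0.95 to 0.99 with each other, Glycam1 0.83 to 0.89 with these 4, and Csn3 at most 0.47, with Lalba.

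Lalba was less closely tied to this group. Its r was 0.73 with Csn1s1 (rho = 0.82, permutation p = 0.00024, adjusted p = 0.0242 against Lalba and 0.0637 against Csn1s1) and 0.67 with Csn2 (rho = 0.78, permutation p = 0.00125, adjusted p = 0.0530 against Lalba and 0.197 against Csn2). Within the Lo tumors r with Csn2 was 0.91 and within the Hi tumors 0.61. Without Hi 3 and Hi 8 it was 0.82 (adjusted p = 0.0378 against Csn2), and without Hi 1 and Hi 5, the tumors farthest from the median of Lalba, 0.67. The difference between Lo and Hi was not tested. Mfge8 had r = 0.57 with Csn2 (rho = 0.55, permutation p = 0.00882, adjusted p = 0.394), 0.41 without Hi 3 and Hi 8, 0.69 within Lo and 0.63 within Hi. Csn3 had r = 0.33 with Csn2 (rho = 0.36, permutation p = 0.160, adjusted p = 0.737), 0.41 without the same tumors, 0.23 within Lo and 0.34 within Hi. Csn3 and Mfge8 had r = 0.08 with each other. No gene passed the threshold against Csn3 or Mfge8, while 2224 and 1441 genes had an unadjusted permutation p under 0.05. On log2(RPKM + 1), which uses total counts without TMM scaling, however, 1302 genes passed against Csn3 (1286 positively). Still none passed against Mfge8.

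**Figure D4:**
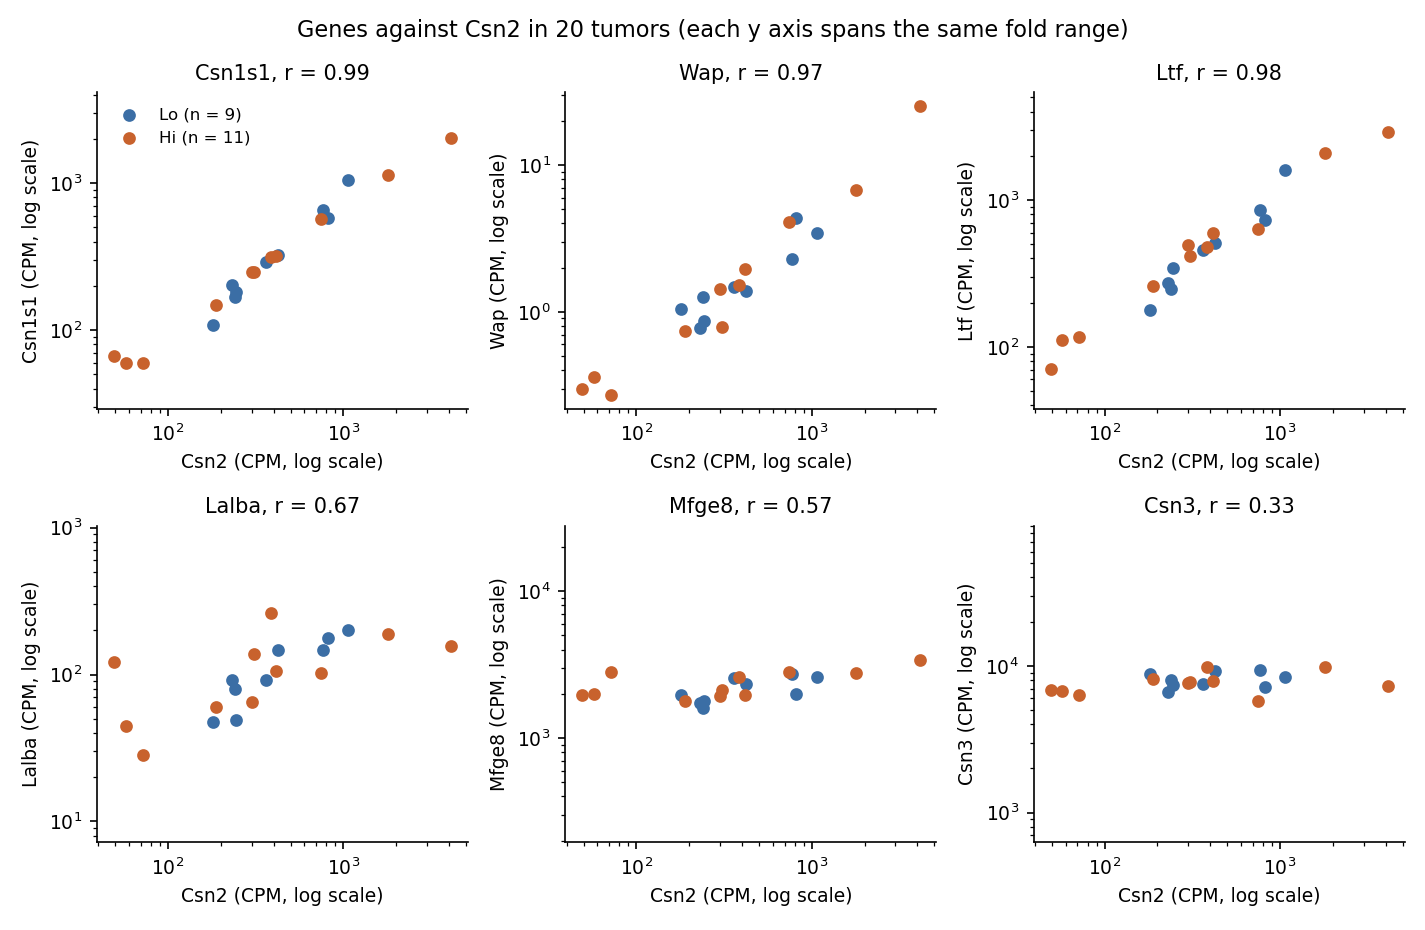
CPM of 6 genes (y axes, log scale, equal fold range in each panel) against Csn2 (x axes, CPM, log scale), 1 point per tumor, Lo in blue and Hi in orange. Csn1s1, Wap and Ltf rise with Csn2 (r of 0.99, 0.97 and 0.98), Lalba scatters (0.67), and Mfge8 and Csn3 stay within a narrow band.

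Promoter sequences of the genes that moved together are given because Stat5 binds the palindrome TTCNNNGAA (N is any base) in milk protein genes. Reference sequence of the 250 bases before the RefSeq start (GRCm38.p6, strand of the gene, 5′ to 3′) was found for 7 of the 8 genes. Csn3 was not among them. Each was searched for TTCNNNGAA, which reads the same on both strands. Matches are in capitals, and positions count back from -1, the base before the start. Csn1s1 (chr5:87665958-87666207, plus strand) holds it from -100 to -92, Csn2 (chr5:87699426-87699675, minus strand) from -93 to -85 and Glycam1 (chr15:103565082-103565331, minus strand) from -145 to -137. The windows of Csn1s2a (chr5:87774200-87774449, plus strand) and Wap (chr11:6638650-6638899, minus strand) hold no match.
Csn1s1: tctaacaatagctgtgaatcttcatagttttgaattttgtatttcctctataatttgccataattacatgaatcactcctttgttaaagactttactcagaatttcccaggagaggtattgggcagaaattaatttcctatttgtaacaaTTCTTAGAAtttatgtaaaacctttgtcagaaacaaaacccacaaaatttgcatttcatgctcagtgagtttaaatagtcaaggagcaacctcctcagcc
Csn2: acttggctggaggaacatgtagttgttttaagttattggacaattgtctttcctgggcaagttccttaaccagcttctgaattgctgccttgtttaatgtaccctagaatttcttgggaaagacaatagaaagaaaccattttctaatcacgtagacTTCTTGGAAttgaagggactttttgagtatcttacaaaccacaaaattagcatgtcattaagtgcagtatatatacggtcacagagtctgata
Glycam1: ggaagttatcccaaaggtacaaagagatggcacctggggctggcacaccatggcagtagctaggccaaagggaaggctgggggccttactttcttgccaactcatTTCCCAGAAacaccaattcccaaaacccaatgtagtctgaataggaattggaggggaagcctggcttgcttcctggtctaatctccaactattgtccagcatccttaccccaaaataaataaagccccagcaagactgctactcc
Csn1s2a: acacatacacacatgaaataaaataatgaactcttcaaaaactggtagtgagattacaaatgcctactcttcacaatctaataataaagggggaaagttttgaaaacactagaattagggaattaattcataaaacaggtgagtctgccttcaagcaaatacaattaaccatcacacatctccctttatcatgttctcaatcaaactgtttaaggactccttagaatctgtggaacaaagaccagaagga
Wap: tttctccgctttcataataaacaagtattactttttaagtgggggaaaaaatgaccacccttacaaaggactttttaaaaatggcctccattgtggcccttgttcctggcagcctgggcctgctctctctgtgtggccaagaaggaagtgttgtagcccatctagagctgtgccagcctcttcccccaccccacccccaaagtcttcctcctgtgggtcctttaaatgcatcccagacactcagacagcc
In all, 3 of the 7 windows held the palindrome, against 7.02% of 32851 mouse promoter windows of the same length. The windows of Lalba and Mfge8 held none. A looser motif of C/EBP factors, TTNNGNAA on either strand, was in 6 of the 7 windows and in 36.9% of all. Such matches describe the letters of the window and not binding. Sequence farther upstream, and sites that differ from the palindrome, were not searched. Whether a match goes with a gene's r with Csn2 was not tested.

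Outside the 8 genes, the genes most like Csn1s1, Csn1s2a, Csn2 and Wap were the same 3, Ltf, Btn1a1 and Lao1. Ltf (ENSMUSG00000032496, chromosome 9, 111019292 to 111042766) codes for lactoferrin, the iron-binding protein of milk. It ranged from 70.5 CPM in Hi 3 through a median of 467 CPM to 2914 CPM in Hi 8, and had r = 0.98 with Csn2 (rho = 0.98, permutation p = 1e-05, adjusted p = 0.00651), 0.97 within Lo and 0.99 within Hi. Btn1a1, butyrophilin of the milk fat globule membrane, ranged from 8.07 CPM in Hi 1 to 166 CPM in Hi 8, with r = 0.96. Lao1, an L-amino acid oxidase found in mouse milk, ranged from 0.258 CPM in Hi 3 to 12.2 CPM in Hi 8, with r = 0.95. Ltf was also the gene outside the 8 most like Glycam1 (r = 0.86), followed by Csn1s2b (0.83) and 2310057J18Rik (0.79).

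Other products of the secretory cell and the fat droplet moved with Csn2 in part. Of 22 listed genes for other milk and secretion products, 21 could be tested. Of these, 6 correlated positively with Csn2 and 0 negatively, against 0.307% and 0.0106% of all genes, and the median r was 0.55 against 0.01 over all genes. The 6 were Ltf, Btn1a1, Lao1, Muc1 (r = 0.84), a mucin of the cell surface, Plin2 (r = 0.82), which coats lipid droplets, and Csn1s2b (r = 0.79). Elsewhere on this list Wfdc18 had r = 0.69 (adjusted p = 0.147), Xdh, which with butyrophilin takes part in milk fat secretion, 0.61 (adjusted p = 0.319), and B4galt1 0.61 (adjusted p = 0.312). Trf, transferrin, was abundant in all tumors, from 19490 to 43260 CPM, and had r = 0.25 (adjusted p = 0.799). Of 14 genes of milk fat synthesis, none passed the threshold, with a median r of -0.04. Thrsp had r = 0.63 (adjusted p = 0.296) and Scd2, a desaturase, r = -0.56 (adjusted p = 0.399).

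Among 17 tested genes of lactogenic signaling none passed the threshold against Csn2, which is near the share over all genes (0.318%), and their median r was 0.27 against 0.01 over all genes. The highest r was that of Elf5, 0.68 (rho = 0.72, permutation p = 0.00085, adjusted p = 0.143), whose level ran from 97.1 CPM in Hi 1 to 181 CPM in Hi 8. Stat5a had r = 0.48 (adjusted p = 0.551) and Prlr 0.09 (adjusted p = 0.936). With Lalba, 4 of the 17 correlated positively, against 1.82% of all genes. They were Stat5a (r = 0.86, rho = 0.88, permutation p = 1e-05, adjusted p = 0.00629), Nfib (r = 0.83, adjusted p = 0.00629), Ehf (r = 0.75, adjusted p = 0.0172) and Stat5b (r = 0.74, adjusted p = 0.0200). Stat5a ranged from 27.8 CPM in Hi 7 to 64.0 CPM in Hi 5, the tumor highest for Lalba. Its r with Lalba was 0.91 within Lo, 0.84 within Hi and 0.79 without Hi 1 and Hi 5, where no gene of the list passed the threshold. Whether the r of Stat5a differs between Lalba and Csn2 was not tested.

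On log2 CPM over all 20 tumors Lalba was correlated with more genes than any other of the 8, whereas on log2(RPKM + 1) it was correlated with 125 and Csn3 with 1302. At the threshold 343 genes correlated positively (1.82% of all) and 54 negatively (0.286%) with it, against 58 and 2 for Csn2. These 397 genes were 2.1% of all tested, and the count was 21 with the 18 tumors left without Hi 1 and Hi 5. The count for Csn2 was 23 without Hi 3 and Hi 8. Genes most like Lalba were Klhdc7a (r = 0.93, rho = 0.89), Igfbp5 (r = 0.90, rho = 0.88) and C530043A13Rik (r = 0.90, rho = 0.86), each with a permutation p of 1e-05 and an adjusted p of 0.00629. Igfbp5, a binding protein of insulin-like growth factors known from the involuting gland, ranged from 2148 CPM in Lo 8 to 9164 CPM in Hi 5, and its r was 0.89 within Lo, 0.95 within Hi and 0.86 without Hi 1 and Hi 5. Of the 21 genes for other milk and secretion products, 7 correlated positively with Lalba, among them Wfdc18 (r = 0.80, adjusted p = 0.0127), Plin2 (0.78), Btn1a1 (0.76) and Slc34a2 (0.76), a phosphate transporter. Without Hi 1 and Hi 5 none of this list passed. Of the marker lists, 1 of 9 myoepithelial genes correlated with Lalba, namely Oxtr, the oxytocin receptor (r = 0.83, adjusted p = 0.00629), while 3 of the 9 had an r above 0 and the median was -0.11. Of 7 lymphocyte genes (median r = 0.45) the 1 that passed was Cd3e (r = 0.71, adjusted p = 0.0341), at no more than 0.539 CPM in any tumor.

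**Figure D5:**
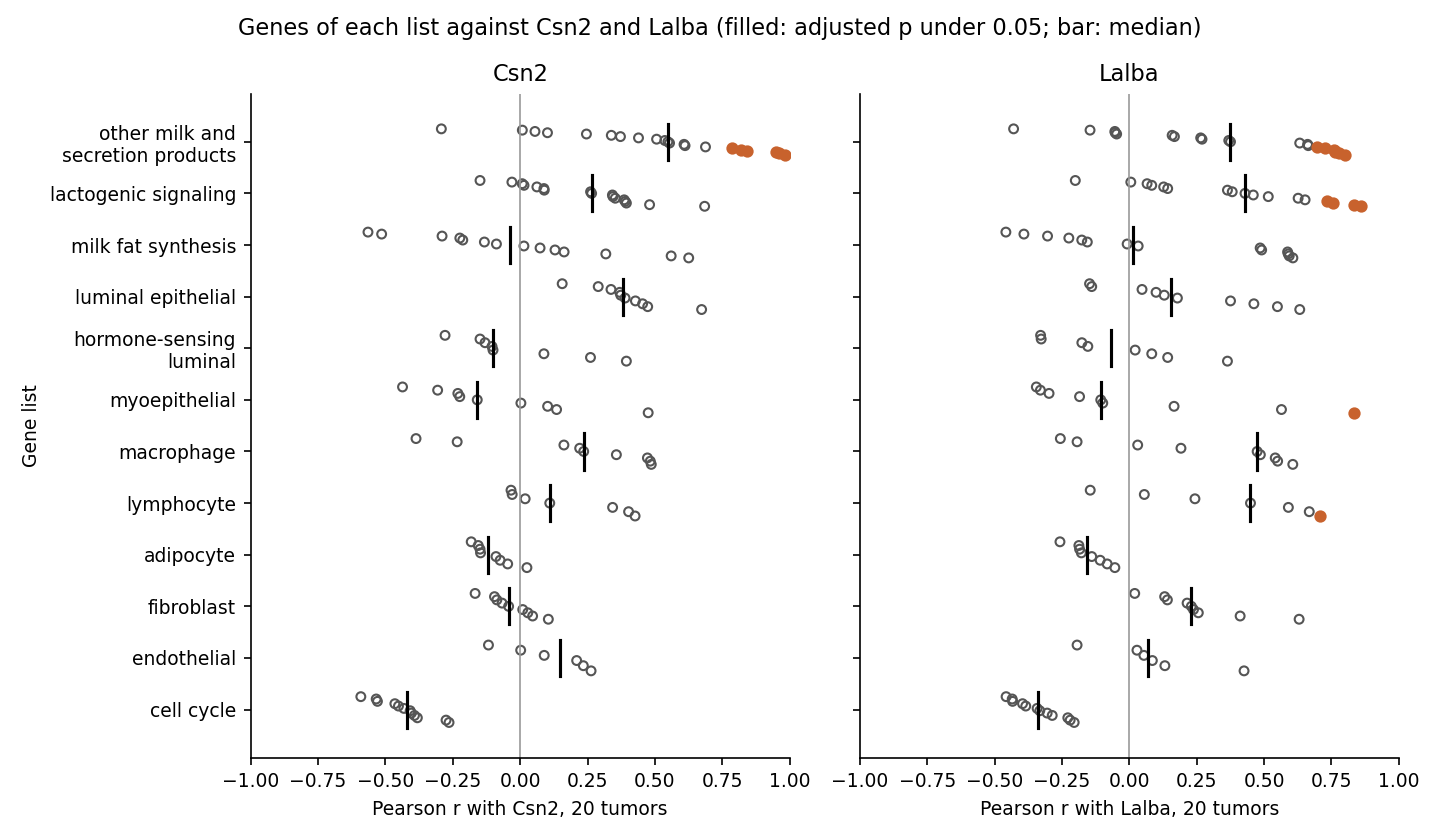
Pearson's r over 20 tumors (x axes) of single genes (points) of 12 lists (y axis) with Csn2 (left) and Lalba (right), filled where the adjusted permutation p was under 0.05, with the median as a bar. With Csn2, 6 genes of other milk and secretion products are filled and none of lactogenic signaling. With Lalba, 7 and 4 are.

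Markers of other cells gave no call against Csn2, where 0.318% of all genes were called, so that none is near the share over all genes. None of the tested genes for luminal epithelium (10 genes, median r = 0.38), hormone-sensing luminal cells (8, -0.10), myoepithelium (9, -0.16), macrophages (9, 0.24), lymphocytes (7, 0.11), adipocytes (8, -0.12), fibroblasts (9, -0.04) or endothelium (6, 0.15) passed the threshold. The highest r among them was that of Elf3, an epithelial transcription factor, at 0.67 (adjusted p = 0.145), followed by C1qc of macrophages at 0.49 (adjusted p = 0.548). All 10 luminal epithelial genes had a positive r with Csn2. Their mean, each gene standardized over the tumors, had r = 0.59 with Csn2 (rho = 0.63, permutation p = 0.00652, adjusted p = 0.0883). That r was 0.58 within Lo, 0.61 within Hi and 0.38 without Hi 3 and Hi 11, which lay farthest from the median of this mean. All 12 cell cycle genes had a negative r with Csn2, from -0.59 (Mki67, adjusted p = 0.359) to -0.26 (Ccnb2), with a median of -0.42, and none passed the threshold. Most of these values were weakest when Hi 8 was left out. Without it r was -0.36 for Mki67, -0.31 for Aurkb and Top2a, -0.13 for Bub1, -0.12 for Aurka and 0.003 for Ccnb2. Without both Hi 3 and Hi 8 it was -0.41 for Mki67, -0.42 for Aurkb and -0.31 for Top2a. For Bub1 it was then -0.15, for Aurka -0.33 and for Ccnb2 -0.23. Mcm5 was weakest without Hi 1, at -0.38. The mean of the 12 genes, each standardized over the tumors, had r = -0.50 with Csn2. That r was -0.30 without Hi 8, -0.59 within Lo and -0.625 within Hi. Mki67, a marker of dividing cells, was lowest in Hi 8, at 136 CPM, against a median of 273 CPM. With Mfge8 its r was -0.76 (rho = -0.74, permutation p = 4e-05, adjusted p = 0.151), -0.68 within Lo and -0.78 within Hi. For Csn3, Wfdc18 had r = 0.72 (adjusted p = 0.205), Socs2, an inhibitor induced by Stat5, 0.69 (adjusted p = 0.215), and C1qb 0.64 (adjusted p = 0.257).

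Markers of other cells and tissues, and measures of the libraries, were also set against these genes. Of markers of high endothelial venules and lymph nodes, which express Glycam1, Cxcl13, a chemokine, passed the filter on low counts. Its r with Glycam1 was 0.07. Chst4, a sulfotransferase of these venules, had 1 read in all 20 tumors together, and Ccl19 had 8. They had the fewest reads of the listed markers. The others below the filter had 41 to 152 reads each in the 20 tumors together. Macrophage markers had a median r of 0.19 with Mfge8, with C1qc at 0.46. Salivary gland markers, 3 of 7 tested, had a median r of -0.21 with Csn2. The total read count had r between -0.26 and 0.13 with the 8 genes, and the share of reads on the ribosomal RNA locus between -0.38 (Mfge8) and 0.19 (Glycam1). With that share Csn3 had r = -0.32 (permutation p = 0.178, adjusted p = 0.662), -0.77 within Lo and -0.27 within Hi. For Mfge8 it was -0.56 within Lo and 0.006 within Hi. These differences between Lo and Hi were not tested.

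Lo and Hi tumors overlapped for each of the 8 genes. Csn2 was between 181 and 1067 CPM in Lo tumors (median 362) and between 49.1 and 4121 CPM in Hi tumors (median 307). Csn1s1 was between 109 and 1058 CPM in Lo (median 291) and between 59.9 and 2030 CPM in Hi (median 250). Csn1s2a was between 74.3 and 531 CPM in Lo (median 220) and between 29.4 and 2463 CPM in Hi (median 170). For these 3 genes all Lo tumors lay inside the range of the Hi tumors. Wap was between 0.778 and 4.33 CPM in Lo (median 1.38) and between 0.270 and 25.4 CPM in Hi (median 1.43). Lalba was between 47.4 and 200.6 CPM in Lo (median 91.6) and between 28.5 and 261 CPM in Hi (median 105). Glycam1 was between 5.57 and 136 CPM in Lo (median 19.2) and between 1.41 and 149 CPM in Hi (median 12.6). Here too each Lo tumor lay inside the Hi range. Csn3 was between 6671 and 9342 CPM in Lo (median 8059) and between 5750 and 9852 CPM in Hi (median 7662). Mfge8 was between 1593 and 2709 CPM in Lo (median 1985) and between 1779 and 3416 CPM in Hi (median 2121), and was the 1 gene of the 8 with Lo tumors below the Hi range.

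In edgeR's quasi-likelihood test with Benjamini-Hochberg adjustment over 18883 genes, none of the 8 genes differed between Lo and Hi (adjusted p = 0.9997 for each), and 0 genes did in all (0% called, 1045 genes with an unadjusted p under 0.05). DESeq2 called 1 gene and limma on log2(RPKM + 1) called 2, none of them a milk protein gene. Log2 fold changes (Hi over Lo) were 0.67 ± 0.66 (SE) for Csn2, 0.26 ± 0.59 for Csn1s1, 0.79 ± 0.68 for Csn1s2a, 1.08 ± 0.70 for Wap, 0.01 ± 0.34 for Lalba, 0.09 ± 0.77 for Glycam1, 0.15 ± 0.13 for Mfge8 and -0.07 ± 0.10 for Csn3. The positive values of Csn2, Csn1s1, Csn1s2a and Wap were not kept without Hi 8. They were then -0.16 for Csn2, -0.32 for Csn1s1, -0.003 for Csn1s2a and -0.04 for Wap. A log2 difference of 1 would lie within 2 SEs of 0 for Csn2, Csn1s1, Csn1s2a, Wap and Glycam1, so that a change of this size was not detectable for them in these tumors.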

How the data were processed

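RNA (miRNeasy) from 20 tumors was made into TruSeq mRNA libraries and sequenced paired-end. The reads, trimmed to 100 bases, were mapped to mm10 by MapRseq, for which the submitters' processing notes list TopHat2 2.0.12 and featureCounts 1.4.4. What the authors deposited is a table of unnormalized counts with a gene in each row and a tumor in each column. Whether counting used strand, and which annotation release, are not given in the sources used here, so overlapping and antisense genes are uncertain.

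Milk protein genes and gene lists were chosen with earlier results of these data known. Genes were filtered with filterByExpr and scaled with TMM factors, and log2 CPM used a prior count of 2 (edgeR 4.0.16, R 4.3.3). The main test of Hi against Lo was the quasi-likelihood test of edgeR, with Benjamini-Hochberg adjustment, and DESeq2 1.42.0 and limma 3.58.1 were alternatives. RPKM was computed from counts, listed length and total count. Correlations used 100000 two-sided permutations of the tumors (numpy 2.4.6), and genes with p over 0.2 after the first 2000 were permuted no further. The threshold was an adjusted p of 0.05 over all genes tested. Named outside the 8 genes were up to 3 genes with the highest r per milk protein gene (adjusted p under 0.05, mean log2 CPM of at least 1), up to 4 per list with the largest absolute r with Csn2, genes of the lists for other milk products and for lactogenic signaling, and genes of the casein interval. Epcam, Ccnb2, Bub1, Aurka, Chst4 and Ccl19 were named outside this rule, after their values were seen. Promoters came from RefSeq (GRCm38.p6, the same assembly as mm10). On simulated data, 159 of 200 genes with a log2 change of 1 among 18883 were recovered for Lo against Hi with 5 false calls, and 186 of 200 genes with a planted r of 0.8 among 18883 with 12. In the correlation simulation the other genes were drawn independently, unlike genes of tumors. It also held 200 related genes, whereas 9 passed against Glycam1 and 0 against Csn3 and Mfge8. Its figures therefore need not hold for the 8 genes. The result of 1 listed gene is not reported here.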

Additional observations from a re-analysis of the deposited data

How the results depend on the processing

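None of the 8 genes was called between Lo and Hi in any of the fits run (RLE factors, no filter on low counts, totals without the ribosomal RNA locus, DESeq2, limma, the block and each tumor left out). Signs did change, and the cause was not tested. On log2(RPKM + 1) with limma the log2 change was -0.18 for Csn1s1, -0.12 for Csn1s2a, -0.24 for Csn2, 0.013 for Csn3 and -0.73 for Glycam1. Lo and Hi titles share 9 numbers, but same-numbered tumors did not deviate together (r from -0.42 to 0.21, over 0.1 for 3 numbers), so no pairing was taken from them. A replicate block on the shared numbers (18 tumors) gave changes that were -0.13 for Csn1s1, -0.13 for Csn1s2a, -0.20 for Csn2, -0.092 for Lalba and -0.25 for Glycam1. With each tumor left out they ranged from -0.32 to 0.60 for Csn1s1, -0.003 to 0.97 for Csn1s2a, -0.16 to 0.91 for Csn2, -0.042 to 1.33 for Wap, -0.18 to 0.16 for Lalba and -0.47 to 0.79 for Glycam1. Counts of correlated genes fell when extreme tumors were left out, which also lowered the number of tumors. These effects cannot be told apart, since no other 2 tumors were left out for comparison. Without the 2 tumors farthest from each gene's median, 20 genes were called for Csn1s1 (68 with all), 19 for Csn1s2a (62), 23 for Csn2 (60), 9 for Wap (48), 21 for Lalba (397) and 0 for Glycam1 (9), with 18 tumors in place of 20, and 6 of the 10 pairs of milk protein genes were kept. Spearman's rho gave 35 for Csn1s2a and 17 for Wap and kept 8 pairs. Values on log2(RPKM + 1), without TMM scaling, gave 39 for Csn1s2a, 125 for Lalba and 1302 for Csn3. For Csn3 CPM gave 0, and the cause was not tested. Within-group values (each group's mean subtracted) gave counts of 95 for Csn1s2a, 73 for Wap, 610 for Lalba and 16 for Glycam1. The median of Csn3 was 2257 RPKM on totals without the ribosomal RNA locus and 7638 RPKM with the GENCODE transcript length, an alternative chosen after seeing the data. The order of the 8 genes was the same under each of the 4 alternatives, and no SD moved by over 1.5 times with another prior count, on log2(RPKM + 1), without the extremes or with any tumor left out. For Wap, with 14 reads in its lowest tumor, counting error limits the low values.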

Other observations

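Among other milk-related genes, Trf (transferrin, an iron-binding protein) had a median of 8349 RPKM, beside 1823 RPKM for Csn3 with its listed length and 7638 RPKM with its GENCODE transcript length. Spp1 (osteopontin, a secreted phosphoprotein of milk and bone) ranged from 1774 CPM in Lo 8 to 8146 CPM in Hi 8. Over 20 tumors its r with Mfge8 was 0.73 (rho = 0.74, permutation p = 0.00026, adjusted p = 0.243), which did not pass the threshold. That r was 0.56 within Lo, 0.81 within Hi and 0.57 without Hi 4 and Hi 8. Muc15, a mucin of the milk fat globule membrane, ranged from 48.5 CPM in Lo 8 to 262.8 CPM in Hi 2. Its r with Lalba was 0.76 (rho = 0.76, permutation p = 0.00013, adjusted p = 0.0182) and 0.67 without Hi 1 and Hi 5, the tumors farthest from the median of Lalba, where it no longer passed the threshold. With Csn2 it was 0.34 (permutation, adjusted p = 0.724), and the difference was not tested.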
